A study of Mus musculus with 84 samples.

Results

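The lymphatic and venous identity genes described here are 7 of the 20308 genes measured in 84 single cells sorted as endothelial: Prox1, Nr2f2, Nr2f1, Lyve1, Pdpn, Ccl21a and Nfatc1. They were selected on earlier results from these same cells, taken from the table by gene symbol, and described over all 84 cells by their detection, level and co-detection at a level of TPM 10 (TPM is a transcript level scaled for transcript length and to a fixed total per cell). The cells came from the aorta-gonad-mesonephros region, the part of the trunk that holds the dorsal aorta and the early kidney, of mouse embryos at stage E11.5 (days of embryonic development). They were sorted as positive for the endothelial surface proteins CD31 and CD144 and negative for the blood cell proteins CD41 and CD45. Each was captured on a microfluidic chip, and its full-length cDNA was sequenced as 67-base reads. The labels give no mutant or treated group, no strain, and neither an embryo nor a pool for single cells. The 84 cells therefore form 1 group that counts as 1 sample, every value is a description of these cells, and no test across cells was run.

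Lymphatic vessels of the embryo arise largely from veins: venous endothelial cells switch on the homeobox factor Prox1, leave the vein and form lymph sacs. Nr2f2 (COUP-TFII) is the nuclear receptor that holds the venous state by restraining Notch signalling, and together with the SoxF factor Sox18 it activates Prox1 and later binds to the Prox1 protein. Prox1 in turn sustains Flt4, the receptor for the growth factor VEGF-C. Lyve1, Pdpn and Ccl21a are surface and secreted products used to recognise lymphatic endothelium, but each is also made by other cells of the embryo.

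The sort was reflected in the transcripts. Pecam1, which encodes CD31, reached TPM 10 in 76 cells and Cdh5, which encodes CD144, in 79, and 75 cells held both. Itga2b (CD41) reached it in 2 cells and Ptprc (CD45) in 0. Between 3334 and 10073 genes reached TPM 1 per cell, with a median of 6978, and 0 of the 84 cell barcodes was shared by 2 cells. At least 3 of 11 mesenchyme markers reached TPM 10 in 34 cells, and each member's share of these cells is given with its values.

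Nr2f2 was found in nearly every cell and the other 6 genes in a minority, so the set split into 1 shared gene and 6 restricted ones. Nr2f2 reached TPM 10 in 82 of 84 cells (97.6%, exact Clopper-Pearson 95% interval 91.7% to 99.7%, which covers counting error over cells only). Nfatc1 followed in 40 cells (47.6%, 36.6% to 58.8%), Pdpn in 37 (44.05%, 33.2% to 55.3%) and Prox1 in 36 (42.9%, 32.1% to 54.1%). Nr2f1 reached it in 28 cells (33.3%, 23.4% to 44.5%), Ccl21a in 20 (23.8%, 15.2% to 34.4%) and Lyve1 in 15 (17.9%, 10.4% to 27.7%). In this order the intervals of neighbours overlap at every step after Nr2f2. As a yardstick, 75.1% of all 20308 genes reached TPM 10 in fewer cells than Prox1 did, 96.3% in fewer than Nr2f2 and 59.5% in fewer than Lyve1.

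**Figure D1:**
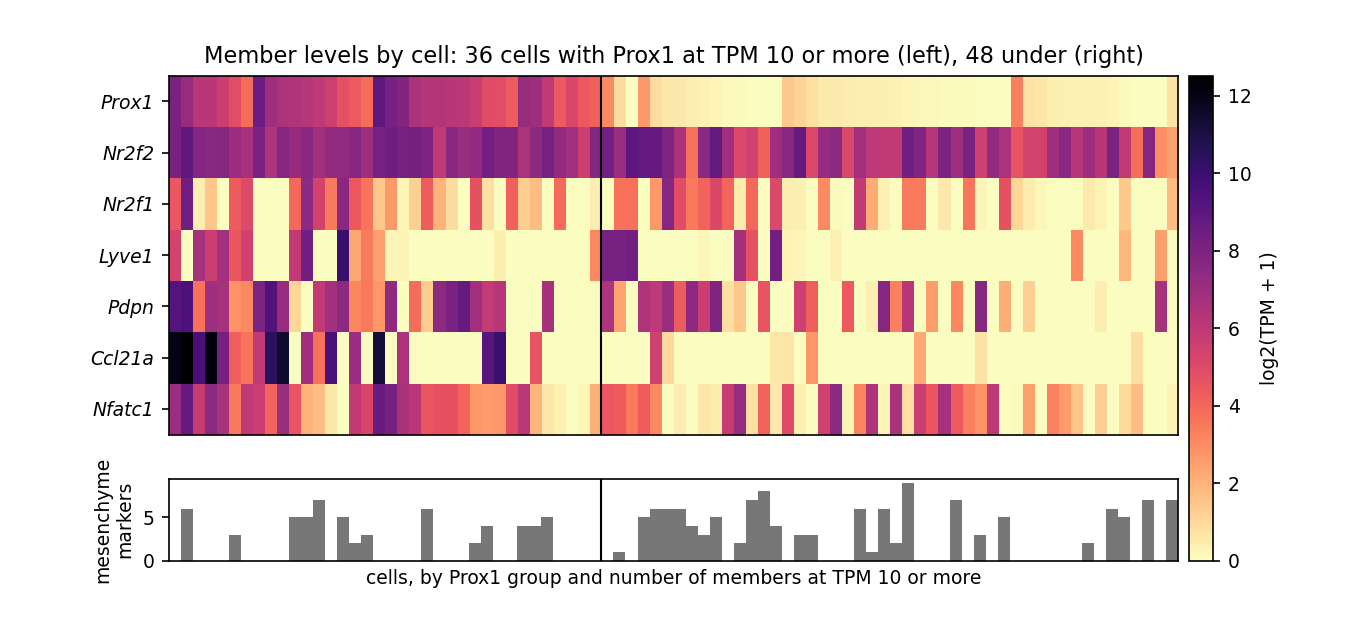
Level of each of the 7 genes in each of the 84 cells as log2(TPM + 1) (colour), with the 36 cells that hold Prox1 at TPM 10 or more left of the line and the 48 others right of it; grey bars count the mesenchyme markers at TPM 10 or more in the same cell. Nr2f2 runs through both groups, and the dark Ccl21a values lie almost wholly left of the line, in 19 of its 20 cells.

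Prox1, the switch for lymphatic fate, lies on the minus strand of chromosome 1 (190118035 to 190170827, GRCm38.p6). Over all 84 cells its level ran from 0 to 483 TPM with a median of 0.83. In the 36 cells at TPM 10 or more it ran from 13.2 to 483 TPM, with a median of 67.3. The 48 cells below lay between 0 and 9.11 TPM, with a median of 0.245. Few cells lay in between: 5 held Prox1 at TPM 1 to 10, and 9 exceeded TPM 100. The cells nearest the threshold held 13.2 and 9.11 TPM.

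The promoters of Prox1 and of Pdpn are shown because both genes were found together in many cells. They are from RefSeq (GRCm38.p6) and run from 250 bases before the start site to 50 bases after it, on the gene's strand, at chr1:190170778-190171077 (minus strand) for Prox1 and chr4:143299515-143299814 (minus strand) for Pdpn. Capitals mark a match on either strand to AGGTCA, the core site of Nr2f factors, to AACAAT, a Sox site, or to TATAAA.
Prox1: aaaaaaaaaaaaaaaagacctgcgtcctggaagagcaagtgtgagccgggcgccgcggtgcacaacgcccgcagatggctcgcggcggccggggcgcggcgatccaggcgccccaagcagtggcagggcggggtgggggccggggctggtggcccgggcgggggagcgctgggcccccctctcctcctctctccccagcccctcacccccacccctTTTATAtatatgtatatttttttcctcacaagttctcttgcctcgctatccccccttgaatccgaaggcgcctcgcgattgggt
Pdpn: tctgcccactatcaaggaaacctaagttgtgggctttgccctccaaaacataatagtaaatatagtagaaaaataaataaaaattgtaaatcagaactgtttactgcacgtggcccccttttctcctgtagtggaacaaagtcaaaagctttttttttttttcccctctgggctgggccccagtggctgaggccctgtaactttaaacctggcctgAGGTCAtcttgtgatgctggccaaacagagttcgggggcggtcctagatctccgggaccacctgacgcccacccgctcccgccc
The Prox1 window holds TATAAA on the opposite strand, with its first base 34 bases before the start site. The Pdpn window holds AGGTCA on its own strand, also 34 bases before the start site. Of 32851 RefSeq promoter windows of 300 bases, 13.6% hold TATAAA, 16.3% AGGTCA and 10.7% AACAAT, so single matches are common. AACAAT was in none of the windows searched, which covered Prox1, Nr2f2, Nr2f1, Pdpn, Ccl21a and Gm13304, and AGGTCA was in Pdpn alone. A match or its lack in such a window describes letters and not binding.

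Nr2f2, the venous regulator, lies on chromosome 7 (70351946 to 70366746). Its level ran from 4.38 to 484 TPM over the 84 cells, with quartiles of 72.9 and 241 TPM and a median of 156. The 5 cells with the most Nr2f2 held 15.6% of its summed TPM, against 46.2% for Prox1 and 78.96% for Ccl21a, so it was the most evenly spread of the members by that measure. Cells with Prox1 at TPM 10 or more held 45.2 to 475 TPM of Nr2f2, with a median of 193, and cells without it 4.38 to 484 TPM, with a median of 118. The ranges overlap almost entirely, and the mean of log2(TPM + 1) was 0.91 higher in the Prox1 cells. Both cells with Nr2f2 under TPM 10 lacked Prox1 as well. Nr2f2 also reached TPM 10 in 33 of the 34 cells with mesenchyme markers, so its presence alone does not set venous endothelium apart here.

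Nr2f1 (COUP-TFI), the close relative of Nr2f2 on chromosome 13 (78188971 to 78198873), was found in fewer cells and at a lower level. In its 28 cells at TPM 10 or more it ran from 10.3 to 331 TPM with a median of 19.98, and 4 cells exceeded TPM 100. Its values passed smoothly through the threshold, with 15 cells between TPM 1 and 10 and the nearest values at 10.3 and 9.99 TPM. The coding sequences of Nr2f2 and Nr2f1 are 83.2% identical over aligned bases, yet 0 of the 4156 stretches of 67 bases in the Nr2f2 transcript occur in Nr2f1. The levels of the 2 genes therefore rest on reads that can be told apart. All 28 Nr2f1 cells also held Nr2f2, where the product of the shares gives 27.3 cells.

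Mesenchyme markers lay beside Nr2f1: 17 of the 28 Nr2f1 cells and 17 of the 56 others held at least 3 of them. The summed TPM of that list ran from 0.3 to 1771 with a median of 188 in Nr2f1 cells, and from 0.04 to 2854 with a median of 2.96 in the others. Of its 9 genes at TPM 10 in at least 5 cells, 5 had a mean log2(TPM + 1) at least 1 higher in Nr2f1 cells. Over all genes that share was 3.87%. At least 3 erythroid markers were present in 3 cells and at least 3 platelet markers in 3, and all of these held Nr2f1. By the same count Nr2f1 was in 0 of 4 cells with neural, 1 of 3 with muscle, 1 of 2 with epithelial and 0 of 1 with smooth muscle markers. Without the 34 cells with mesenchyme markers, Nr2f1 was found in 11 of 50 cells (22%). The part of these markers in the Nr2f1 values was not tested.

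Nfatc1, a calcium-regulated transcription factor of endocardium that also shapes lymphatic vessels, lies on chromosome 18 (80606205 to 80713071). Its 40 cells at TPM 10 or more held 10.4 to 404 TPM, with a median of 50.8, and 17 cells lay between TPM 1 and 10. Nfatc1 cells and cells with mesenchyme markers were largely different cells: 9 of the 40 Nfatc1 cells and 25 of the 44 others held at least 3 mesenchyme markers, which summed to between 0.04 and 892 TPM with a median of 3.52 in Nfatc1 cells and to between 0.14 and 2854 TPM with a median of 267 in the others. None of the 84 cells held 3 of the 6 endocardial markers. Npr3 reached TPM 10 in 4 of the 40 Nfatc1 cells and 7 of the 44 others, Gata5 in 3 and 3, Nrg1 in 1 and 3, Gata4 in 0 and 3, Tbx20 in 0 and 1, and Hand2 in 0 and 0. The endocardial list summed to a median of 7.67 TPM in Nfatc1 cells and 5.61 TPM in the others. Genes of calcineurin, the phosphatase that activates Nfat proteins, were widely present: the catalytic subunits Ppp3ca and Ppp3cb reached TPM 10 in 63 and 55 cells, the regulatory subunit Ppp3r1 in 36 and the catalytic subunit Ppp3cc in 0. Of the other Nfat genes, Nfatc3 reached TPM 10 in 23 cells, Nfatc4 in 10 and Nfatc2 in 0.

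Among the surface and secreted members, Lyve1, the hyaluronan receptor of lymphatic endothelium, was the rarest. It lies on chromosome 7 (110850607 to 110862953), had a median of 0 TPM over all cells, and ran from 21.5 to 1065 TPM with a median of 108 in its 15 cells. The nearest value below the threshold was 9.81 TPM. Pdpn (podoplanin), the mucin-like protein that binds a platelet receptor and keeps lymph and blood vessels apart, lies on chromosome 4 (143267409 to 143299564). It ran from 10.3 to 709 TPM with a median of 103 in its 37 cells, and 13 further cells lay between TPM 1 and 10.

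Ccl21a, the chemokine that draws Ccr7-bearing leukocytes to lymphatic vessels, had the highest single values of the set. It lies on chromosome 4 (42772860 to 42773991), was at a median of 0 TPM over all cells, and ran from 11.6 to 5853 TPM with a median of 421 TPM in its 20 cells. The 5 highest cells held 5853, 4891, 4219, 2818 and 2269 TPM. The cells nearest the threshold held 11.6 and 5.61 TPM, and only 2 cells lay between TPM 1 and 10. Its receptor gene Ccr7 was at 0 TPM in every cell, and Ccl19, the other ligand of that receptor, reached TPM 10 in 6 cells.

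The Ccl21a values are uncertain because the genome holds near-identical copies of the gene. Gm13304, on chromosome 4 at 42114787 to 42115917, has the same 402-base coding length and differs from Ccl21a at 2 coding bases, T84A and C194T, where the base of Ccl21a comes first, then the position counted from 1 at the start codon, then the base of Gm13304. Coding bases 64 to 214 of both transcripts in the GENCODE reference are shown because they hold both differences, in capitals.
Ccl21a: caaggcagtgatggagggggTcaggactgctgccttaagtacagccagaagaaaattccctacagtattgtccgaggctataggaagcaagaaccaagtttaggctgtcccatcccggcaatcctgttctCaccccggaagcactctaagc
Gm13304: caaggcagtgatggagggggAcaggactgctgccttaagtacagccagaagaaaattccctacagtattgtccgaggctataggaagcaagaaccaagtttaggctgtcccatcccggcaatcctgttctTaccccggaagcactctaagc
Of the 804 stretches of 67 bases in the Ccl21a transcript, 511 (63.6%) also occur in Gm13304, so a read from either gene often fits both. All 771 stretches of Gm13304 occur in a further copy, Gm21541. How such reads were divided is not given in the sources used here.

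The copies extend to the promoter. The RefSeq windows (GRCm38.p6) at chr4:42773942-42774241 (minus strand) for Ccl21a and chr4:42114537-42114836 (plus strand) for Gm13304 are 99% identical over aligned bases, with 3 mismatches. They are shown because they are as alike as the coding sequences, and they hold no capitals since none of the 3 motifs searched above occurs in them.
Ccl21a: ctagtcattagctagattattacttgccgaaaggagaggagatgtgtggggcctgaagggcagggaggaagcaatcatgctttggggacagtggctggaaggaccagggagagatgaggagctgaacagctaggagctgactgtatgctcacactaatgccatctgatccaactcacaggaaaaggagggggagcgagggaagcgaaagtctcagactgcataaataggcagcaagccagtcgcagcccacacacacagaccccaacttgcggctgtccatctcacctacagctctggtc
Gm13304: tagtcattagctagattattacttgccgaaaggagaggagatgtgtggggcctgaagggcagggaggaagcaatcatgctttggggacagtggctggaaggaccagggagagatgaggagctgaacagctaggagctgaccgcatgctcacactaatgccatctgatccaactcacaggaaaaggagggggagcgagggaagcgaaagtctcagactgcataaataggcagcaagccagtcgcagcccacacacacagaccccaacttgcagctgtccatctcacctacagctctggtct

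Over cells the 2 rows moved together. Gm13304 reached TPM 10 in 15 cells, and all 15 also held Ccl21a at TPM 10 or more. In them the Gm13304 level was between 0.230 and 1.73 times the Ccl21a level, with a median of 0.322. In 4 Ccl21a cells Gm13304 was at 0 TPM, and Spearman's correlation over the 84 cells, which share the same dividing of reads, was 0.839. Gm21541 reached TPM 10 in 4 cells, and Ccl21b and Gm10591 in 0, each with a highest value of 3.12 TPM. The sum of Ccl21a and its copies reached TPM 10 in 21 cells, against 20 for Ccl21a alone, with a highest value of 7851 TPM. Summing the copies thus added 1 cell to the count, while the level of Ccl21a alone depends on how reads were divided. The added cell, cell 23, held Ccl21a at 5.61 TPM and Gm13304 at 8.5 TPM. It lacked Prox1 (0.73 TPM) and held Pecam1 at 0.98 TPM and Cdh5 at 0.79 TPM.

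**Figure D2:**
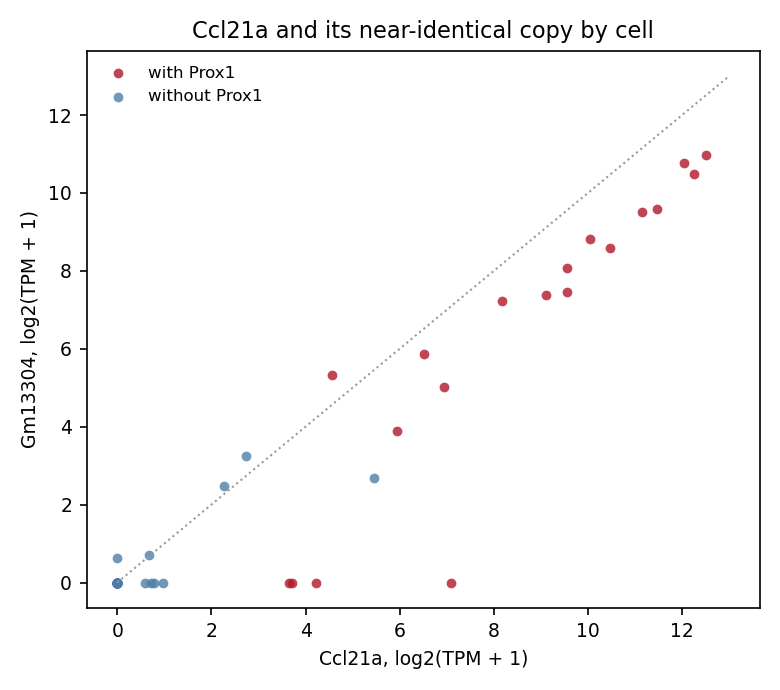
Gm13304 against Ccl21a in each of the 84 cells, both as log2(TPM + 1), with Prox1 cells in red, the other cells in blue and a dotted line of equal levels. Of the 36 Prox1 cells, 17 lie at 0 for both genes, 14 lie under the line with Gm13304 above 0, 4 hold Ccl21a with Gm13304 at 0, and 1 lies above the line.

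Next, the members were counted together in the same cell. The number at TPM 10 or more per cell was 0 in 1 cell, 1 in 13, 2 in 22, 3 in 16, 4 in 15, 5 in 10, 6 in 6 and 7 in 1. These numbers fell into 35 combinations. The most common were Nr2f2 alone in 12 cells, Nr2f2 with Nfatc1 in 10 and Nr2f2 with Pdpn in 6. Prox1 was part of 21 of the 35 combinations, so cells with the lymphatic switch did not share 1 fixed set of partners.

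Prox1 and Ccl21a formed the tightest pair. Ccl21a reached TPM 10 in 19 of the 36 Prox1 cells (52.8%, 35.5% to 69.6%) and in 1 of the 48 others. Read the other way, 19 of the 20 Ccl21a cells held Prox1, where the product of the 2 shares gives 8.57 cells, a ratio of 2.22. In the remaining Ccl21a cell the chemokine was at 42.96 TPM and Prox1 at 0.83 TPM. The pair occurred in each of the 7 sets of 12 cells that share the second index of their barcode, in 1 to 4 cells per set. These counts are the reason the genes were chosen, so they describe and support nothing.

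The other Prox1 pairs held smaller excesses. Nfatc1 was present in 23 of 36 Prox1 cells (63.9%), against 17.1 cells from the product (ratio 1.34), and Pdpn in 21 (58.3%), against 15.9 (1.32). Lyve1 was present in 9 (25%), against 6.43 (1.40), and Nr2f1 in 15 (41.7%), against 12 (1.25). Nr2f2 was present in all 36, but a gene found in 82 cells leaves a pair almost no room, here between 34 and 36 cells.

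Over all 15 pairs without Nr2f2 the ratio was above 1 in 11 and below 1 in 4. Its median was 1.34 and its range 0.90 to 2.22. Ratios for pairs of other genes were not computed, so no share over genes in general stands beside these counts. The members were also selected on these cells, so all these ratios, those of the Prox1 pairs included, are a description only. Outside the Prox1 pairs the ratio was highest for Nr2f1 with Lyve1 (10 cells against 5.0) and Lyve1 with Ccl21a (7 cells against 3.57). The 4 pairs below 1 were Nr2f1 with Nfatc1 (12 cells against 13.3), Lyve1 with Pdpn (6 against 6.61), Pdpn with Nfatc1 (17 against 17.6) and Nr2f1 with Pdpn (12 against 12.3). Each of these 4 differs from the product by under 2 cells.

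**Figure D3:**
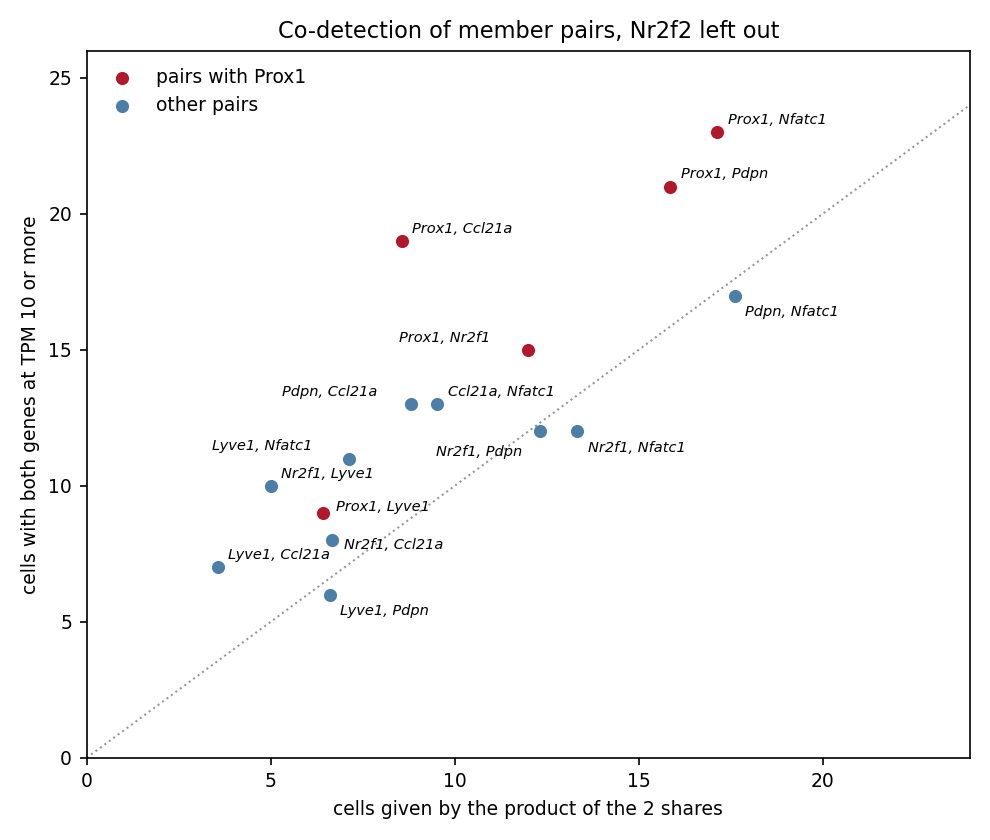
Cells with both genes at TPM 10 or more against the number given by the product of the 2 shares, for the 15 pairs without Nr2f2; pairs with Prox1 are red, other pairs blue, and the dotted line marks equality. Prox1 with Ccl21a stands farthest above the line, at 19 cells against 8.57.

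The 3 surface and secreted genes were also counted together in cells with and without Prox1. Since 19 of the 20 Ccl21a cells held Prox1, these counts partly restate that overlap. The members were selected on these cells, so the counts are a description only. At least 1 of Lyve1, Pdpn and Ccl21a reached TPM 10 in 29 of the 36 Prox1 cells and in 21 of the 48 others. At least 2 did so in 16 Prox1 cells and in 2 others, and all 3 in 4 Prox1 cells and in 0 others. None of the 3 was found in 7 Prox1 cells and 27 others. So 7 cells held the switch without any of its usual surface or secreted companions at TPM 10.

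Cells with Prox1 were then set against cells without it. Of the 6 other members, 3 had a mean log2(TPM + 1) at least 1 higher in Prox1 cells and 0 were as much lower, while 5.39% of the 10637 other genes at TPM 10 in at least 5 cells were as much higher. Since these members were selected on such values, nothing is read from that count or from the like counts of members below. Ccl21a ran from 0 to 5853 TPM with a median of 11.8 in the 36 Prox1 cells, and from 0 to 42.96 TPM with a median of 0 in the 48 others, a difference of 4.12 in mean log2(TPM + 1). Pdpn ran from 0 to 709 TPM with a median of 34.6 in Prox1 cells, and from 0 to 234 TPM with a median of 0.56 in the others (difference 2.01). Nfatc1 ran from 0 to 404 TPM with a median of 23.3 in Prox1 cells, and from 0 to 182 TPM with a median of 3.46 in the others (difference 1.70). In all 3 genes the ranges overlap, because each also lay at 0 TPM in some Prox1 cells. Differences for Lyve1 and Nr2f1 were 0.87 and 0.77, and the median number of genes at TPM 1 was 7026 in Prox1 cells and 6947 in the others. At least 3 mesenchyme markers were present in 12 of the 36 Prox1 cells and 22 of the 48 others, and their summed level ran from 0.24 to 917 TPM with a median of 3.52 in Prox1 cells and from 0.04 to 2854 TPM with a median of 46.1 in the others. The part of these markers in the differences was not tested, but without the 34 cells that hold them the differences were 4.77 for Ccl21a, 3.65 for Pdpn and 0.98 for Nfatc1.

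**Figure D4:**
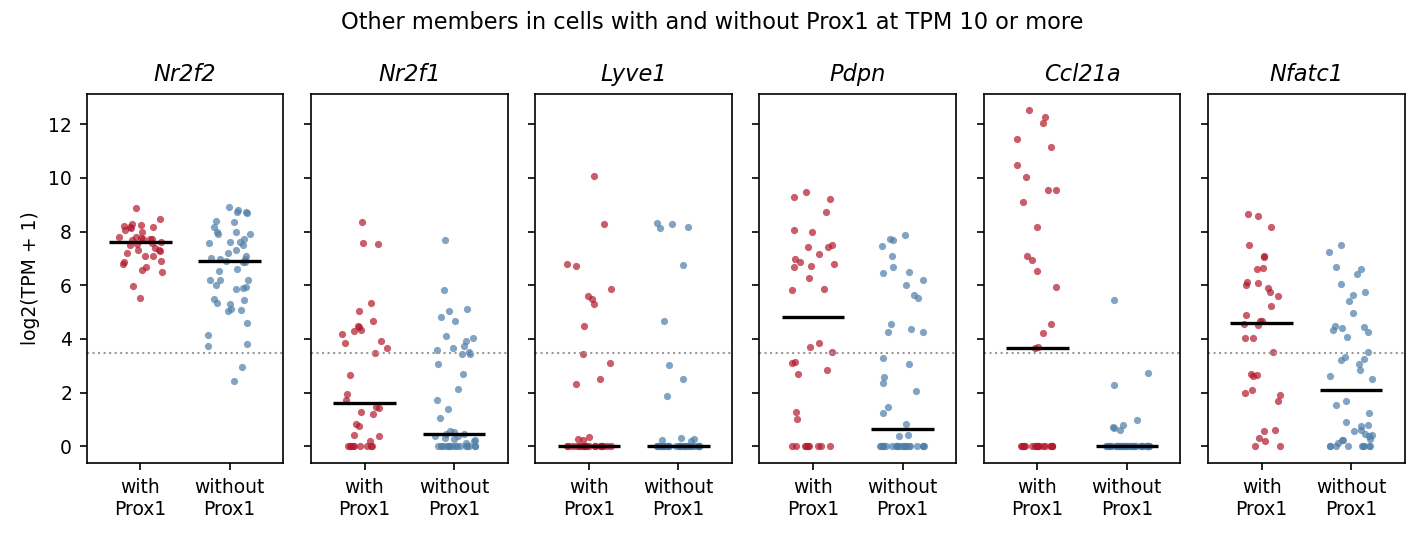
The 6 other members in the 36 cells with Prox1 at TPM 10 or more (red, left in each panel) and the 48 without (blue, right), as log2(TPM + 1) per cell, with black bars at the median and a dotted line at TPM 10. Ccl21a values above the line lie in 19 cells with Prox1 and 1 without, while Nr2f2 overlaps almost fully.

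The 3 receptors of the VEGF-C pathway, by which lymphatic endothelium is drawn out of the vein, had higher levels in Prox1 cells. List genes are counted here and below where they reached TPM 10 in at least 5 cells. Of the 5 such genes of the VEGF-C list, 3 had a mean log2(TPM + 1) at least 1 higher and 0 lower, with a median difference of 1.14 against 0.13 over all genes. Flt4, the VEGF-C receptor, had a median of 60.02 TPM in Prox1 cells and 30.8 TPM in the others (difference 1.40). The co-receptor Nrp2 had a median of 132 TPM in Prox1 cells and 48.8 TPM in the others (1.47), and the receptor Kdr 223 and 138 TPM (1.14). Kdr is also a general endothelial gene. Of other such genes, Egfl7 differed by 1.21, Cldn5 by 1.16, Fli1 by 0.59, Erg by 0.57, Cdh5 by 0.37 and Esam by -1.11. The number of pan-endothelial genes at TPM 10 ran from 9 to 15 in Prox1 cells (median 13) and from 0 to 15 in the others (13.5). The part of endothelial content in the receptor differences was not tested. The ligand side was rare in these sorted cells: Vegfc reached TPM 10 in 5 Prox1 cells and 8 others, and Figf, the gene of VEGF-D, in 2 of all 84 cells. Adamts3, the protease that matures VEGF-C, reached TPM 10 in 6 Prox1 cells and 1 other, and its partner Ccbe1 in 0 cells. Adamts14 reached TPM 10 in 2 cells and Svep1 in 1.

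Of 10 lymphatic regulators other than the members, 1 had a mean at least 1 higher in Prox1 cells and 0 lower, with a median difference of 0.36. That gene was Maf, a leucine zipper transcription factor, at a median of 19.7 TPM in Prox1 cells and 2.10 TPM in the others (difference 1.55). Sox18, the inducer of Prox1, reached TPM 10 in 28 of 36 Prox1 cells and 26 of 48 others (difference 0.995), and Gata2, a factor of lymphatic valves, in 24 and 21 (0.90). Hhex reached TPM 10 in 19 Prox1 cells and 20 others, the valve factor Foxc2 in 8 and 6, and Tbx1 in 4 and 4. Over all 84 cells the flow-responsive factors Klf4 and Klf2 reached TPM 10 in 36 and 26, and Foxc1 in 22.

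Most venous and arterial genes differed by under 1 between the same cells. Of the 8 venous genes besides Nr2f2, 2 were at least 1 higher in Prox1 cells and 0 lower, with a median difference of -0.04. These were Nrp2, given above, and the scavenger receptor Stab1, at a median of 48.9 TPM in Prox1 cells and 20.6 TPM in the others (difference 1.66). Aplnr, the apelin receptor of veins, had a median of 131 TPM in Prox1 cells and 210 TPM in the others (difference -0.60), Ephb4 18.8 and 23.4 TPM (-0.32), and Emcn 982 and 881 TPM (-0.02). Flrt2 differed by 0.41 and Dab2 by -0.06, and Stab2 reached TPM 10 in 6 Prox1 cells and 10 others. Of 16 arterial genes 1 was at least 1 higher, with a median difference of 0.02. It was Unc5b, a netrin receptor, which reached TPM 10 in 23 of 36 Prox1 cells and 15 of 48 others (difference 1.96). Unc5b and, elsewhere, Esam, Cldn5, Nfatc2, Nfatc3, Nfatc4, Reln and Mmrn1 fall outside the naming rule and were picked with their values known. The same holds for Tbx20, Lyz2, Myh6, Actc1, Myog, C1qb and Csf1r.

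Within the 36 Prox1 cells, those with Ccl21a at TPM 10 or more were set against those without. Prox1 itself had a median of 71.6 TPM in the 19 cells with Ccl21a and 59.1 TPM in the 17 without. Ccl21a, on which the cells were divided, was listed at 0 TPM in all 17 and at 11.6 TPM or more in the 19. Maf reached TPM 10 in 15 of the 19 cells with Ccl21a and 6 of the 17 without, at medians of 35.1 and 5.62 TPM. Reln, a secreted protein of collecting lymphatics, reached TPM 10 in 7 cells with Ccl21a and 0 without. Flt4 had a median of 90.0 TPM in cells with Ccl21a and 51.8 TPM in those without, and Mmrn1, a matrix protein of lymphatic endothelium, 124 and 30.9 TPM. Pdpn reached TPM 10 in 12 of 19 cells with Ccl21a and 9 of 17 without, at medians of 57.8 and 10.3 TPM. Of the 15 lymphatic effector genes, Reln and Mmrn1 included, 6 were at least 1 higher in cells with Ccl21a and 0 lower, among 8.88% of all genes higher, with a median difference of 0.74 against 0.09 over all genes. At least 3 mesenchyme markers were present in 6 of the 19 and 6 of the 17. Against all 64 cells without Ccl21a, the 20 Ccl21a cells had 4 of 6 other members at least 1 higher, among 7.47% of all genes: Prox1 (4.16), Pdpn (2.46), Nfatc1 (2.08) and Lyve1 (1.23). As for Prox1, nothing is read from that count of selected members.

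Pdpn cells were divided by whether they held Prox1 at TPM 10 or more. Of the 37 Pdpn cells, 21 held Prox1 and 16 did not. At least 3 mesenchyme markers reached TPM 10 in 6 of the 21 with Prox1 and 13 of the 16 without, and the summed TPM of the list ran from 0.24 to 917 with a median of 2.98 with Prox1 and from 0.4 to 1782 with a median of 503 without. The collagen gene Col1a2 had a median of 0.17 TPM with Prox1 and 79.3 TPM without, Col3a1 0.33 and 38.9 TPM, and the mesenchymal factor Prrx1 0.24 and 12.7 TPM. Of 9 mesenchyme genes, 7 had a mean log2(TPM + 1) at least 1 lower in Pdpn cells with Prox1 and 0 higher, among 6.29% of all genes lower.

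Across the same 37 cells, 3 of 10 lymphatic regulators were at least 1 higher with Prox1 and 0 lower, 5 of 15 lymphatic effectors higher and 2 lower, and 3 of 5 VEGF-C genes higher and 1 lower, among 14.6% of all genes higher. Ccl21a reached TPM 10 in 12 of 21 Pdpn cells with Prox1 and 1 of 16 without, and Nfatc1 in 14 and 3. The Ccl21a counts restate the overlap of Ccl21a with Prox1 given above. Flt4 had a median of 78.9 TPM in Pdpn cells with Prox1 and 17.0 TPM in those without, Nrp2 163 and 31.2 TPM, and Kdr 175 and 86.1 TPM. Pdpn itself overlapped widely, from 10.3 to 709 TPM with a median of 126 in cells with Prox1 and from 17.9 to 234 TPM with a median of 80.1 in cells without. Of 15 pan-endothelial genes, Kdr among them, 10 had a mean at least 1 higher with Prox1 and 0 lower. The number of the 15 at TPM 10 per cell ran from 0 to 15 with a median of 11 in Pdpn cells without Prox1. In those with Prox1 it ran from 9 to 15 with a median of 12. Pecam1 and Cdh5 both reached TPM 10 in 20 of the 21 and 13 of the 16. The part of mesenchyme transcripts in these Pdpn values was not tested.

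The pairing of Prox1 with Pdpn therefore differed by the presence of mesenchyme markers. Among the 34 cells with at least 3 of them, Prox1 was found in 6 of 19 Pdpn cells (31.6%, 12.6% to 56.6%), and 6 cells held both genes where the product gives 6.71. Among the 50 other cells it was found in 15 of 18 (83.3%, 58.6% to 96.4%), and 15 cells held both where the product gives 8.64. For Prox1 with Ccl21a the numbers were 6 of 7 in cells with mesenchyme markers and 13 of 13 in the others. Since 19 of the 20 Ccl21a cells held Prox1, almost any division of the cells gives such numbers, and nothing is read from them. The split by mesenchyme markers was made after the data were seen. Against the 47 cells without Pdpn, the 37 Pdpn cells as a whole had 2 of 6 members at least 1 higher, among 2.91% of all genes, namely Ccl21a (2.34) and Prox1 (1.74). That count of selected members is a description only. Of 8 venous genes 2 were at least 1 lower in Pdpn cells and 0 higher, of 15 pan-endothelial genes 5 and 0, and of 16 arterial genes 2 and 0, among 3.4% of all genes lower. The 2 venous genes were Aplnr, with a median of 81.2 TPM with Pdpn and 232 TPM without (difference -2.13), and Emcn, with 617 and 1299 TPM (-1.98).

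Lyve1 cells likewise held different companions with and without Prox1. Of the 15, 9 held Prox1 and 6 did not. Ccl21a reached TPM 10 in 7 of the 9 and in 0 of the 6, and Pdpn in 5 and 1. Nearly all Ccl21a cells hold Prox1, so the Ccl21a counts restate that overlap. Stab2, a hyaluronan receptor of sinusoidal endothelium, went the other way, in 1 of 9 cells with Prox1 and 4 of 6 without, at medians of 0.61 and 17.1 TPM. The 4 cells that held Lyve1 and Stab2 without Prox1 had 319, 307, 285 and 281 TPM of Lyve1 and 20.2, 24.98, 14.1 and 54.8 TPM of Stab2. The last of them held Prox1 at 7.18 TPM, near the threshold, and Pdpn at 88.5 TPM. In cells with Prox1, Lyve1 ran from 21.5 to 1065 TPM with a median of 57.8, and in those without from 24.5 to 319 TPM with a median of 283. With all 3 genes counted at TPM 1 the Stab2 contrast was gone, with 8 of 14 cells with Prox1 and 4 of 8 without, so it rests on levels above that and on few cells. At least 3 mesenchyme markers were present in 4 of the 9 Lyve1 cells with Prox1 and 2 of the 6 without.

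Lyve1 is also a gene of embryonic macrophages, so macrophage markers were read in the same cells. None of the 84 cells held 3 of 11 macrophage markers at TPM 10. C1qb and Csf1r were at 0 TPM in all 15 Lyve1 cells. C1qb was also at 0 TPM in every other cell and Csf1r at 1.33 TPM at most, so neither sets the Lyve1 cells apart. Mrc1 reached TPM 10 in 4 of the 15 Lyve1 cells and 3 of the 69 others (difference 1.24). Fcer1g did so in 2 and 5 (0.43), Tyrobp in 1 and 1 (0.30) and Cd68 in 0 and 8 (-0.59). The list summed to between 1.71 and 68.6 TPM with a median of 18.1 in Lyve1 cells with Prox1, and to between 0.43 and 800 TPM with a median of 1.58 in those without. Mrc1, the mannose receptor that lymphatic endothelium and macrophages share, reached TPM 10 in 4 of the 9 Lyve1 cells with Prox1 and 0 of the 6 without, at up to 33.4 TPM. Among the 6 without Prox1, cell 41 held Lyve1 at 285 TPM beside the platelet genes Pf4 at 35696, Ppbp at 10388, Gp9 at 2425 and Gp6 at 981 TPM, and Itga2b, the gene of the CD41 protein that the sort was set against, at 686 TPM. That cell also carried the highest macrophage sum, nearly all of it in Fcer1g (496 TPM) and Lyz2 (302 TPM). Without it Stab2 was found in 3 of 5 Lyve1 cells lacking Prox1. Against the 69 cells without Lyve1, the Lyve1 cells had 4 of 6 members at least 1 higher, among 7.77% of all genes: Ccl21a (2.15), Nr2f1 (1.69), Nfatc1 (1.18) and Prox1 (1.09). Nothing is read from that count, since the members were selected on these cells. Some platelet markers were higher in Lyve1 cells as well, while muscle markers went both ways. At least 3 of 7 platelet markers were present in 2 of 15 Lyve1 cells and 1 of 69 others, with sums from 0 to 50974 TPM and a median of 1.85 in Lyve1 cells and from 0 to 159 TPM and a median of 0 in the others, and Pf4 reached TPM 10 in 5 and 6 cells (difference 2.28). At least 3 of 9 muscle markers were present in 2 Lyve1 cells and 1 other. Their sums ran from 0 to 6790 TPM with a median of 2.72 in Lyve1 cells, and from 0 to 1615 TPM with a median of 2.91 in the others. Tnnt1, the muscle marker found in most cells, reached TPM 10 in 3 Lyve1 cells and 20 others (difference -0.26). Tnnt2 did so in 3 and 6 (0.88), Myod1 in 1 and 4 (-0.04) and Myl7 in 1 and 4 (-0.03). Actc1 did so in 2 and 1 (1.62) and Myog in 2 and 2 (1.28). Myh6 and Nkx2-5 stayed under TPM 10 in all 84 cells. Their part in the Lyve1 values was not tested.

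**Figure D5:**
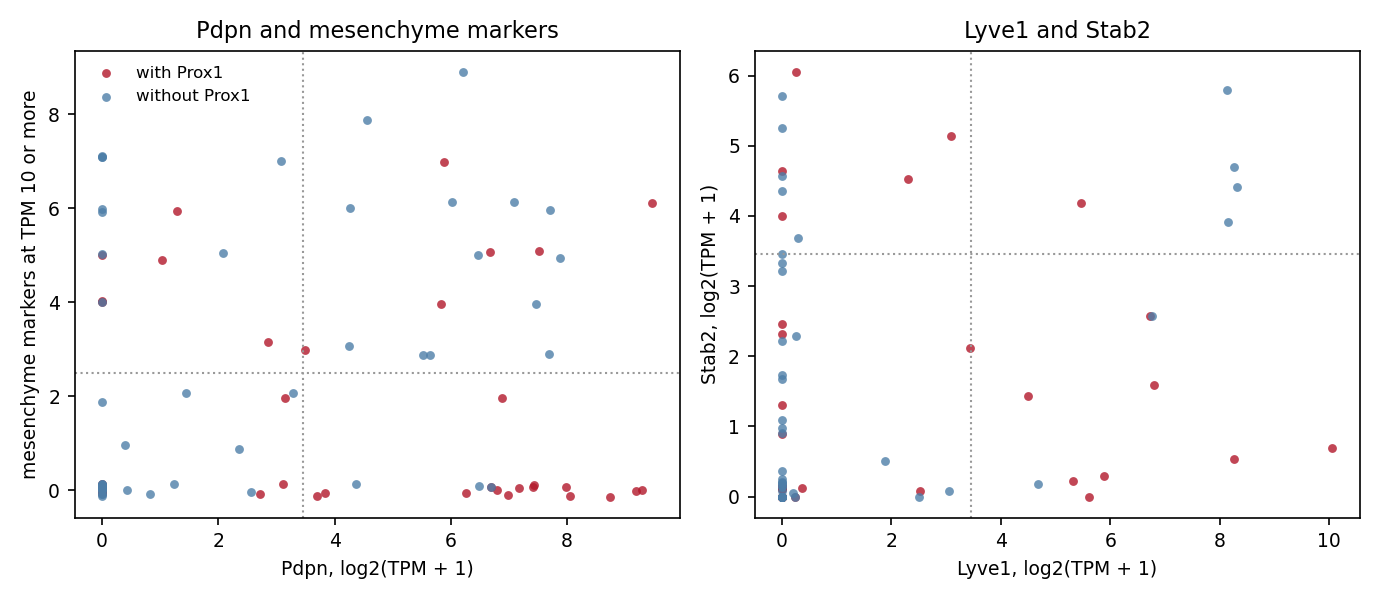
Left, Pdpn as log2(TPM + 1) against the number of mesenchyme markers at TPM 10 or more (jittered up and down); right, Lyve1 against Stab2, both as log2(TPM + 1); each point is 1 of 84 cells, red with Prox1 and blue without, and dotted lines mark TPM 10 or 3 markers. Pdpn cells with Prox1 lie mostly at the bottom right and those without at the top right (13 of 16), and the 4 cells high in both Lyve1 and Stab2 without Prox1 stand together at the upper right.

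The Nfatc1 and Nr2f1 cells were divided by Prox1 in the same way. Since 19 of the 20 Ccl21a cells hold Prox1, their Ccl21a counts restate that overlap. Of 40 Nfatc1 cells, Ccl21a was found in 13 of the 23 with Prox1 and 0 of the 17 without, and Pdpn in 14 and 3. Aplnr had a median of 105 TPM in Nfatc1 cells with Prox1 and 275 TPM in those without (difference -2.44), and Stab2 reached TPM 10 in 4 and 8 of them. Of 28 Nr2f1 cells, Ccl21a was found in 8 of the 15 with Prox1 and 0 of the 13 without.

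Nfatc1 cells also had higher levels of general endothelial genes. Of 15 pan-endothelial genes, 7 had a mean log2(TPM + 1) at least 1 higher in the 40 Nfatc1 cells than in the 44 others and 0 lower, and both Pecam1 (medians 217 and 122 TPM) and Cdh5 (172 and 117 TPM) were among them. Of 10 lymphatic regulators, 6 were at least 1 higher, with a median difference of 1.18, and 5 of 9 mesenchyme genes were at least 1 lower, among 1.71% of all genes lower. Among the members, Prox1 (2.04), Ccl21a (1.70) and Lyve1 (1.06) were at least 1 higher, 3 of 6, among 5.71% of all genes. In Nr2f1 cells against the 56 others, 1 of 6 members was at least 1 higher, Lyve1 (1.802), among 3.87% of all genes. As above, nothing is read from these counts of selected members. Flt4 had a median of 21.6 TPM in Nr2f1 cells and 42.6 TPM in the others (difference -0.97).

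Finally, the genes whose level over the 84 cells was most like each member were named by Spearman's correlation among 9230 genes at TPM 10 in at least 10 cells. The cells share 1 sample, and cells with fewer detected genes lower many genes at once, so these are descriptions. Prox1 was most like Sgk3 (0.52), a kinase of the serum and glucocorticoid family, then Nrp2 (0.51), Tbc1d4, the urokinase gene Plau and the metalloprotease gene Adam10. Nr2f2 was most like Nrp2 (0.42), then Mbd2, Serf1, Celsr1 and Tbc1d4. Nr2f1 was most like Gm5113 (0.52), then Ptprs, Scn2b, Narf and the chemokine gene Cxcl12. Lyve1 was most like Sdpr (0.52), a caveolar protein gene, then C1qtnf6, Cdc42ep5, the scavenger receptor gene Cd36 and Rsu1. Pdpn was most like Nnat (0.48), then Pard6g, Plce1, Impad1 and Mllt3. Ccl21a was most like Acot13 (0.45), then Celsr1, a planar polarity cadherin of lymphatic valves, Nts, Sgk3 and Pcsk6. Nfatc1 was most like Dmtn (0.59), then Myzap, Gnas, Mtus1 and Nrp2 (0.52). Nrp2 was the gene shared most widely, among the 5 nearest of Prox1, Nr2f2 and Nfatc1.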

How the data were processed

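The deposited table gives TPM for 20308 genes in 84 cells, made by the authors. The submitters' processing notes list Bowtie 0.12.9, RSEM 1.2.3 and CASAVA 1.8.2 with the build mm10; the annotation is not given in the sources used here. Read depth cannot be had from TPM, so the precision of single values is unknown. Values were used as deposited. A gene was called present in a cell at TPM 10 or more, cells were set against each other by the mean of log2(TPM + 1), which makes differences of low genes look smaller, and genes at TPM 10 in at least 5 cells entered, with a difference of 1 as the threshold. The members and the 20 gene lists (192 genes, 188 with a row) were chosen with earlier results of these data known. Comparisons within the cells of 1 member and by mesenchyme markers were added after the data were seen. Named genes are the members and Gm13304, all genes of the VEGF-C, lymphatic regulator, venous and Ccl21 lists, the 4 genes in most cells and the 1 in fewest of other lists, and the 5 genes most like each member; others are named as chosen later. Mesenchyme, smooth muscle, macrophage, erythroid, platelet, epithelial, neural, hepatic, muscle and endocardial markers were counted per cell. Of the gene symbols, 18956 matched RefSeq (GRCm38.p6), whose promoter table held 5 of the 7 members; transcripts are from GENCODE vM21, with the longest reading frame taken as coding. No doublet caller was run. Python 3.11.15, pandas 2.3.3, NumPy 2.4.6, SciPy 1.17.1 and Matplotlib 3.10.9 were used, and the scripts were tested on simulated data. Alternatives were TPM 1 and 100, leaving out cells, other scaling, a pseudocount of 10 and another gene filter.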

Additional observations from a re-analysis of the deposited data

How the results depend on the processing

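No paired analysis was possible because the 84 cells form 1 group and no test was run. Of 400 values under alternatives, 336 stayed within the 95% counting interval of the reported share, on the same side of a difference of 1, or within 1.5 times a count, 64 moved, and no difference of at least 1 changed sign. At TPM 1, Nr2f2 was in 100% of cells, Nr2f1 in 51.2%, Pdpn in 59.5% and Nfatc1 in 67.9%. At TPM 100, the shares were 10.7% for Prox1, 69.05% for Nr2f2, 4.76% for Nr2f1, 25% for Pdpn and 10.7% for Nfatc1, and 10.7% of cells held at least 4 members. There Prox1 was found in 12.1% of Nr2f2, 25% of Nr2f1, 0% of 9 Lyve1, 23.8% of Pdpn and 30.8% of 13 Ccl21a cells, since few cells reach TPM 100 for Prox1. Without the 34 cells with mesenchyme markers, Nr2f1 was in 22% and Nfatc1 in 62% of cells, and Prox1 in 83.3% of Pdpn and 100% of Ccl21a cells. Without the 40 cells with markers of any other type, Nr2f2 was in 100%, Nr2f1 in 22.7% and Nfatc1 in 63.6% of cells, and Prox1 in 93.3% of Pdpn and 100% of Ccl21a cells. The Nfatc1 difference between Prox1 cells and others was 0.93 with a pseudocount of 10 and 0.98 without the mesenchyme-marker cells, against 1.70, and that of Nr2f2 was 1.04 with cells split at TPM 1, against 0.91. By Pearson's correlation of log2(TPM + 1), all 5 most similar genes stayed for Nfatc1, 3 for Prox1 and Pdpn, 2 for Ccl21a, 1 for Nr2f2 and Lyve1 and 0 for Nr2f1. The causes of these moves were not tested. With 1 sample and no named embryo, none of the values has a replicate error, and TPM gives no depth.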

Other observations

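The cells with the most members at TPM 10 or more were cell 46 with all 7 and cells 1, 18, 35, 73, 80 and 81 with 6 each. Each of these 7 cells held Prox1, Nr2f2, Ccl21a and Nfatc1, and they came from 5 of the 7 index sets. Cell 46 held Prox1 at 271 TPM, Nr2f2 at 283 TPM, Nr2f1 at 21.4 TPM, Lyve1 at 38.9 TPM, Pdpn at 585 TPM, Ccl21a at 4219 TPM and Nfatc1 at 133 TPM, with 0 mesenchyme markers at TPM 10. Cell 35, which lacked only Lyve1, had the highest value of the series for Ccl21a (5853 TPM), Pdpn (709 TPM), Nr2f1 (331 TPM) and Nfatc1 (404 TPM), and held 6 mesenchyme markers at TPM 10. Cell 84 had the highest Lyve1 (1065 TPM) with Prox1 at 25.6 TPM and Ccl21a at 0 TPM.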
